A study of Mus musculus with 9 samples.

Results

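The Wnt group described here held 58 genes of the 19938 genes named on the arrays. Its members were taken by symbol: the Wnt ligands, the Frizzled receptors, the co-receptors Lrp5 and Lrp6, the Dkk, Sfrp, Wif1 and Notum inhibitors, the R-spondins with Lgr4 to Lgr6, the ligases Znrf3 and Rnf43, Ctnnb1, Lef1, the Tcf7-like factors, the Axins and Tnfrsf19. The rule reads symbols and not differences between genotypes. Where a gene had several probe sets the brightest on average stood for it, which concerned 1 member, Wnt4. The 58 were 19 Wnt ligands, 10 Frizzled receptors, the transcript Fzd10os opposite Fzd10, 2 LRP co-receptors, 10 secreted inhibitors, 7 R-spondins and their receptors, 2 ligases, 4 nuclear effectors, and Axin1, Axin2 and Tnfrsf19.

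RNA came from cells of the brain ventricular zone, the layer of progenitors that lines the ventricles, of newborn C57BL/Ka mice. The cells went from dissection into RNA extraction without culture or treatment. The 3 genotypes were compared on Affymetrix Mouse Gene ST 1.0 arrays, with 3 arrays each: KO (Prdm16LacZ/LacZ), HET (Prdm16LacZ/+) and WT (Prdm16+/+). The labels name no cell-type-specific driver for the LacZ allele. They tie no array to its own animal or litter, so the p-values cover the array-to-array spread alone, and part of that spread may be technical. Xist, the RNA made from the inactive X chromosome in females, had 4.42, 10.50 and 11.002 in KO, 10.73, 4.64 and 4.99 in HET, and 10.04, 4.44 and 4.70 in WT. The arrays of a genotype thus did not all hold the same RNA, and 2 KO arrays but 1 HET and 1 WT array were high in Xist. Prdm16, a zinc finger regulator of stem cells, served as the check of the labels: it lay between 5.69 and 6.41 in KO, between 6.995 and 7.34 in HET and between 7.23 and 7.62 in WT, with an adjusted p of 0.010 for KO against WT (limma). The limma adjusted p was 0.078 for KO against HET and 0.99 for HET against WT, so Prdm16 did not separate HET from WT. The files do not show which side of the LacZ cassette its probes lie on.

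Wnt proteins are secreted signals that bind Frizzled receptors. In the canonical branch, binding together with LRP5 or LRP6 stops the breakdown of beta-catenin, the product of Ctnnb1. Beta-catenin then enters the nucleus and acts with TCF and LEF factors on target genes such as Axin2. R-spondins bind LGR4, LGR5 or LGR6 and hold back the ligases ZNRF3 and RNF43, which remove Frizzled from the cell surface. SFRP and WIF1 proteins and the enzyme NOTUM restrain the ligand side, while DKK1, DKK2 and DKK4 bind the LRP co-receptors. In the embryonic forebrain Wnt signals from the dorsal midline pattern the cortex and hippocampus, and in the ventricular zone they act on the division and differentiation of progenitors.

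No member passed the test in any comparison of genotypes. The member closest to it was Lgr4, which lay 1.52-fold lower in KO than in WT and in between in HET. Tnfrsf19 lay 1.39-fold lower in KO than in WT, and Wnt2b 1.27-fold lower. Wnt5a lay 1.58-fold higher in KO than in HET and 1.33-fold higher in KO than in WT. Among other Wnt targets followed, the estimates for Axin2, Lef1 and Lgr5 differed by no more than 1.21-fold between any pair of genotypes. Tnfrsf19, also a Wnt target, thus lay farther apart between KO and WT than these. The means of Lef1 (5.61) and Lgr5 (4.83) lay under the highest array median (5.92). The limma intervals reached up to a log2 difference of 0.42 for Axin2 (KO minus WT) and 0.50 for Lef1 (KO minus HET).

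The test was limma across all 19938 genes on the deposited log2 values, and a call was a Benjamini-Hochberg adjusted p under 0.05. In KO against WT 0 of 58 members were called, where 0.451% of all genes were called (0.166% higher and 0.286% lower), and 7 members had an unadjusted p under 0.05 (12.1% of members, against 6.15% of all genes). Of these 7, 4 were lower (Lgr4, Tnfrsf19, Wnt2b and Sfrp1; 2.87% of all genes were lower at that level) and 3 were higher (Wnt3, Wnt7b and Wnt5a; 3.28% of all genes). In HET against WT 0 members were called, where 0.0% of genes were, and 1 member, Lgr4, had an unadjusted p under 0.05, against 4.05% of all genes (2.4% higher and 1.66% lower). In KO against HET 0 members were called, against 0.206% of all genes (0.0451% higher and 0.16% lower), and 5 had an unadjusted p under 0.05 (8.62% of members, against 6.16%). These were Wnt5a, Wnt3, Sfrp2 and Lef1, which were higher in KO as 2.87% of all genes were, and Tnfrsf19, which was lower as 3.3% were. A test for any difference among the genotypes (limma's moderated F) also called 0 members, where 0.296% of genes were called, and 5 had an unadjusted p under 0.05 (8.62% of members, against 5.52% of all genes).

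The 95% interval of the KO minus WT difference lay within 1.5-fold in either direction for 51 of 58 members and within 2-fold for all 58, where 94.1% of all genes had an interval within 1.5-fold. For HET minus WT it lay within 1.5-fold for 55 members and within 2-fold for all 58, and for KO minus HET within 1.5-fold for 55 and within 2-fold for 57, Wnt5a being the exception. The median half-width of these intervals was 0.24 on the log2 scale. The median KO minus WT difference was -0.02 over the members and 0.01 over all genes, and the median HET minus WT difference was -0.04 over the members and 0.00389 over all genes.

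**Figure D1:**
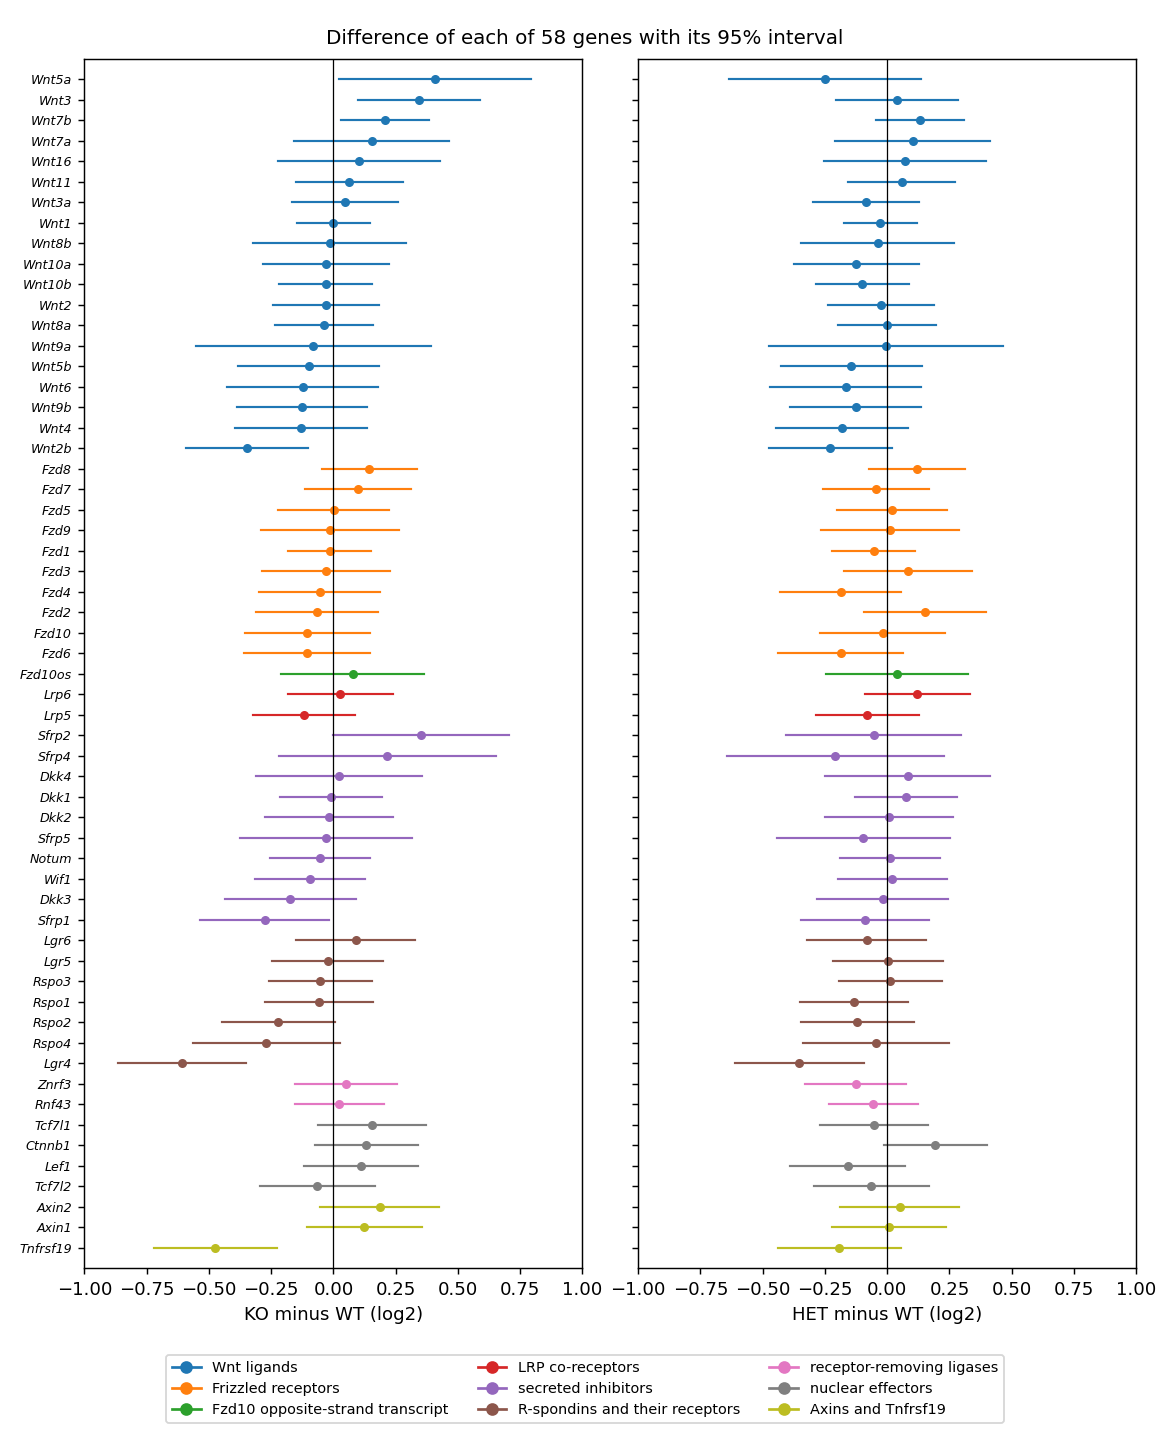
Each point is the log2 difference of 1 gene, KO minus WT on the left and HET minus WT on the right, with its 95% interval from limma, coloured by role. Lgr4 at -0.61 and Tnfrsf19 at -0.47 lie farthest below 0 in KO minus WT and Wnt5a at 0.41 farthest above, and most other intervals span 0.

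The promoters of Lgr4 and Tnfrsf19, the members that lay lowest in KO, are shown together with that of Draxin, a secreted Wnt antagonist outside the 58 whose call is described below. The sequences are RefSeq's, build GRCm38.p6, from 250 bases before to 50 after a start site. Lgr4 is at chr2:109917397-109917696 on the plus strand. Tnfrsf19 has a pair of start sites on the minus strand, at chr14:61046806-61047105 and chr14:61037938-61038237, and Draxin is at chr4:148130649-148130948 on the minus strand. Capitals mark a match to CTTTGAT or CTTTGAA, forms of the motif bound by TCF and LEF factors, searched on both strands.
Lgr4: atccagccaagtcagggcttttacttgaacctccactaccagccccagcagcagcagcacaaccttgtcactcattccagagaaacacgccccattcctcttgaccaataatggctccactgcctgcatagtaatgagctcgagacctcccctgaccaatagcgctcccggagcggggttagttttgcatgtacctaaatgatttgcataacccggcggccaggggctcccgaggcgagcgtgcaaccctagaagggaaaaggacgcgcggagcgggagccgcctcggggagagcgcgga
Tnfrsf19 first start: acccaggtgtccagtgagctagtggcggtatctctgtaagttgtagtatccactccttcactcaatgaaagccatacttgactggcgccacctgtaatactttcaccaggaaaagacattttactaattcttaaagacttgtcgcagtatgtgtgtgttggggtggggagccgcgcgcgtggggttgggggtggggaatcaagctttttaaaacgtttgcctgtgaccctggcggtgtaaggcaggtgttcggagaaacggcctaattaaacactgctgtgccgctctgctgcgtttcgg
Tnfrsf19 second start: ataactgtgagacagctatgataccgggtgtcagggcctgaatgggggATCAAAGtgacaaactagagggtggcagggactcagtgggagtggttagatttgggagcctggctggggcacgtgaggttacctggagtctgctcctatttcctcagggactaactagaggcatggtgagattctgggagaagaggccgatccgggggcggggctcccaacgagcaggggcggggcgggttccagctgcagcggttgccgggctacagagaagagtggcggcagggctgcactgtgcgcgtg
Draxin: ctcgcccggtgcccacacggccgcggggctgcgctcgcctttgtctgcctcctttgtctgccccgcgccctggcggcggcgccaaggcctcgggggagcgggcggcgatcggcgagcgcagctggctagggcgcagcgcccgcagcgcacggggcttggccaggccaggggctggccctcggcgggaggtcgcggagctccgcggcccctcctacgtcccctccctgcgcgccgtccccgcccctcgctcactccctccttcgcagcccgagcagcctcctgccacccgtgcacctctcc
The window at the second Tnfrsf19 start held 1 match, on the opposite strand, and the windows of Lgr4 and Draxin held none. Among the 37 members with a promoter in that table, 4 held a match in some window (Dkk1, Tnfrsf19, Wnt11 and Wnt5b; 10.8%), against 9.88% of 27025 genes. A match describes the letters and is no evidence of binding.

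Among the 19 Wnt ligands, 8 lay higher and 11 lower in KO than in WT, with a median difference of -0.03, and 0 were called. Over all genes 47.4% lay lower in KO than in WT. Wnt5a, a ligand best known for non-canonical signalling, had log2 values of 6.38, 5.93 and 6.34 in KO, 5.56, 5.83 and 5.28 in HET, and 6.10, 5.64 and 5.69 in WT. Every KO array lay above every HET array, while WT replicate 1 lay above KO replicate 2. The KO minus HET difference was 0.66 (SE 0.17, 95% interval 0.27 to 1.04, limma adjusted p = 0.38), the largest of the 58 in that comparison, and the KO minus WT difference was 0.41 (SE 0.17, adjusted p = 0.77).

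Wnt3, a canonical ligand, had 5.16, 5.56 and 5.501 in KO, 5.15, 5.16 and 4.997 in HET, and 5.16, 4.99 and 5.04 in WT. KO replicates 2 and 3 stood above all other arrays, while KO replicate 1 was level with the HET and WT arrays. These are also the KO arrays high in Xist. With the Xist level as a covariate KO minus WT was 0.27, and the part of sex in the difference was not otherwise tested. The KO minus WT difference was 0.35 (SE 0.11, limma adjusted p = 0.50) and the KO minus HET difference 0.30 (SE 0.11, adjusted p = 0.68). Wnt2b, a canonical ligand of the dorsal midline, had 5.76, 5.94 and 5.76 in KO, 6.12, 5.86 and 5.84 in HET, and 6.34, 6.16 and 6.002 in WT. All KO arrays lay below all WT arrays, and HET overlapped both (KO minus WT -0.35, SE 0.11, limma adjusted p = 0.50).

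Wnt7a and Wnt7b are close relatives that signal from neural progenitors and neurons to the brain's vessels. Wnt7b had 5.76, 5.87 and 5.80 in KO, 5.71, 5.79 and 5.71 in HET, and 5.61, 5.71 and 5.49 in WT. The KO arrays lay above the WT arrays without overlap, by 0.21 (SE 0.080, limma adjusted p = 0.70). Wnt7a had 6.17, 6.38 and 6.78 in KO, 6.42, 6.48 and 6.27 in HET, and 6.33, 6.38 and 6.16 in WT, so the genotypes overlapped (KO minus WT 0.15, 95% interval -0.16 to 0.47). That difference was -0.014 without KO replicate 3 and 0.086 with the Xist level as a covariate. Wnt8b, a marker of the cortical hem and hippocampal margin, had 4.16, 4.56 and 4.08 in KO, 4.46, 4.11 and 4.17 in HET, and 4.19, 4.42 and 4.24 in WT, with overlap throughout (KO minus WT -0.02, 95% interval -0.32 to 0.29). Wnt1, a ligand of the midbrain and hindbrain boundary, was the 1 member below the lower quartile of every array. It had the same value, 3.999, on 8 of the 9 arrays.

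In HET against WT 14 of the 19 ligands lay lower and 5 higher, and in KO against HET 15 lay higher and 4 lower, with 0 calls in either. These counts share the HET arrays. Over all genes 48.5% lay lower in HET than in WT and 51.0% lay higher in KO than in HET. Wnt3a, a canonical ligand of the cortical hem, was the 1 ligand whose HET arrays all lay below both the KO and the WT arrays (KO minus HET 0.13, HET minus WT -0.08). The gap was very small: the highest HET value was 5.644, and 4 KO and WT arrays shared the value 5.651.

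**Figure D2:**
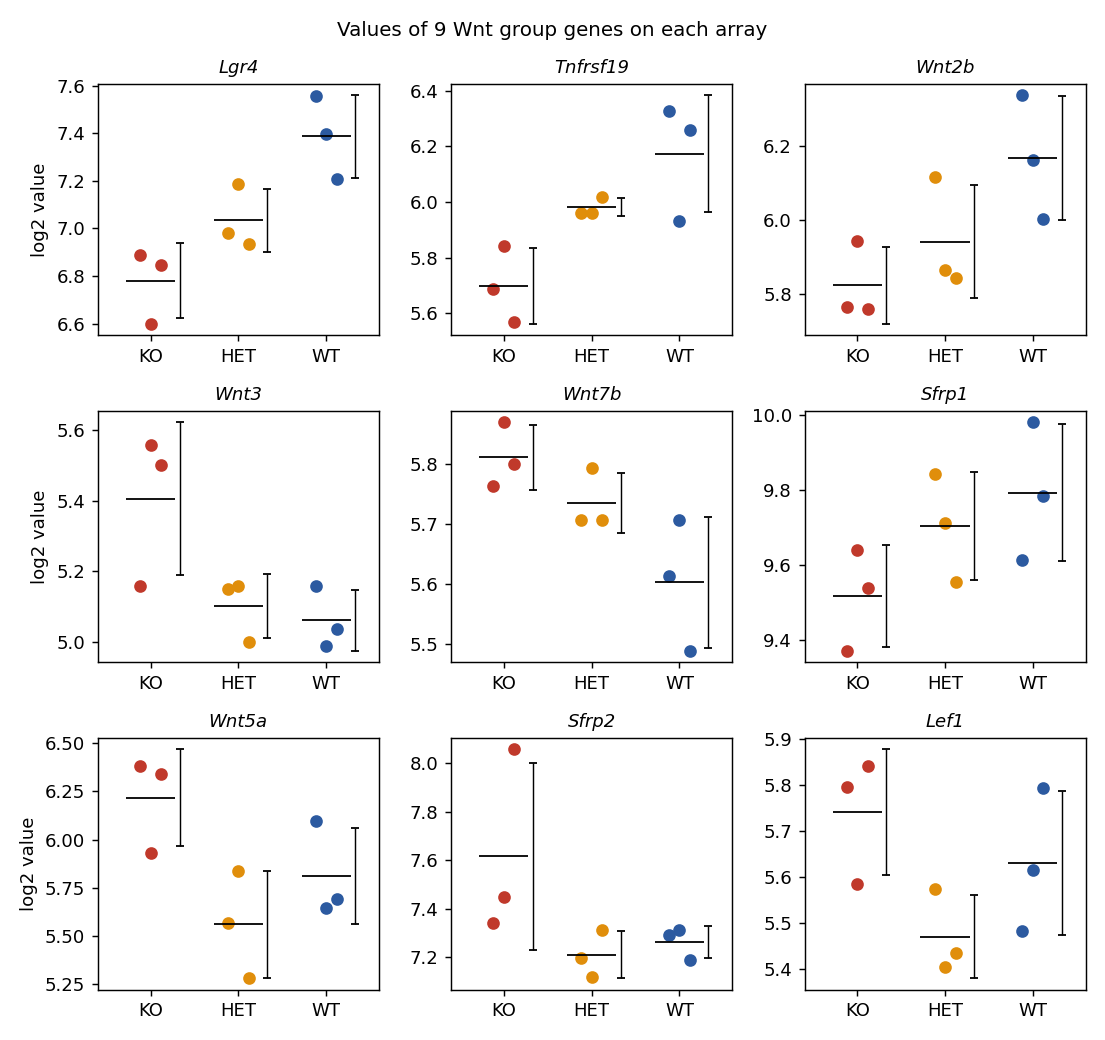
Log2 values of the 9 members with an unadjusted p under 0.05 in any pairwise comparison, 1 point per array, with the genotype mean as a line and the SD as a bar to its right (n = 3 arrays), in KO, HET and WT. Lgr4 steps down without overlap, KO 6.78, HET 7.03 and WT 7.39 in the mean, while Wnt3, Wnt5a, Sfrp1 and Lef1 overlap between KO and WT.

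Frizzled receptors bind the ligands at the cell surface. Of the 10 Frizzled genes, 3 lay higher and 7 lower in KO than in WT, where 47.4% of all genes lay lower. All lay between -0.11 (Fzd6) and 0.14 (Fzd8), and 0 had an unadjusted p under 0.05. Fzd3, a receptor of axon guidance and planar polarity, had 9.73, 9.498 and 9.87 in KO, 9.69, 10.03 and 9.72 in HET, and 9.77, 9.75 and 9.67 in WT. Fzd7 had 7.76, 7.54 and 7.65 in KO, 7.40, 7.58 and 7.53 in HET, and 7.65, 7.60 and 7.39 in WT. Neither separated any pair of genotypes. Fzd2 was the 1 Frizzled gene with KO arrays below all HET arrays (KO minus HET -0.22, limma adjusted p = 0.83). Fzd10os lay at 0.08 in KO minus WT.

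The co-receptor Lrp6 had 8.88, 8.67 and 8.90 in KO, 8.87, 9.04 and 8.83 in HET, and 8.67, 8.84 and 8.87 in WT. Its KO minus WT difference was 0.03 (95% interval -0.18 to 0.24), and the genotypes overlapped. That of Lrp5 was -0.12 (SE 0.093). The ligases that remove Frizzled from the surface lay at 0.05 (Znrf3) and 0.02 (Rnf43) in KO minus WT, and Znrf3 had KO arrays above all HET arrays (KO minus HET 0.18, limma adjusted p = 0.83).

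Lgr4, the R-spondin receptor that raises sensitivity to Wnt, stood apart from its family. It had 6.89, 6.60 and 6.85 in KO, 6.98, 7.19 and 6.94 in HET, and 7.55, 7.40 and 7.21 in WT. The 3 genotypes did not overlap in any pair. The mean was 6.78 ± 0.16 in KO, 7.03 ± 0.13 in HET and 7.39 ± 0.17 in WT (SD, n = 3 each). KO minus WT was -0.61 (SE 0.12, 95% interval -0.86 to -0.35), with an adjusted p of 0.068 by limma, which did not pass. HET minus WT was -0.35 (SE 0.12, limma adjusted p = 0.99; unadjusted p = 0.012), and KO minus HET was -0.25 (SE 0.12, adjusted p = 0.81). The KO against WT difference passed with array weights (limma adjusted p = 0.046) and with quantile normalization (0.026). It did not pass in the other settings of the fit. There the adjusted p lay between 0.053, with the dimmest genes left out, and 0.34, without WT replicate 1.

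The rest of that family lay closer to 0. Lgr5, the stem cell marker of other epithelia and a canonical target, had 4.90, 4.86 and 4.68 in KO, 5.01, 4.66 and 4.84 in HET, and 4.86, 4.86 and 4.79 in WT (KO minus WT -0.02, 95% interval -0.25 to 0.20). Lgr6 lay at 0.09 in KO minus WT. The R-spondins, ligands of the LGR receptors, lay at -0.06 (Rspo1), -0.22 (Rspo2), -0.05 (Rspo3) and -0.27 (Rspo4). Of the 7 genes of the family 6 lay lower in KO than in WT, as 47.4% of all genes did, with 1 at an unadjusted p under 0.05 and 0 calls.

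**Figure D3:**
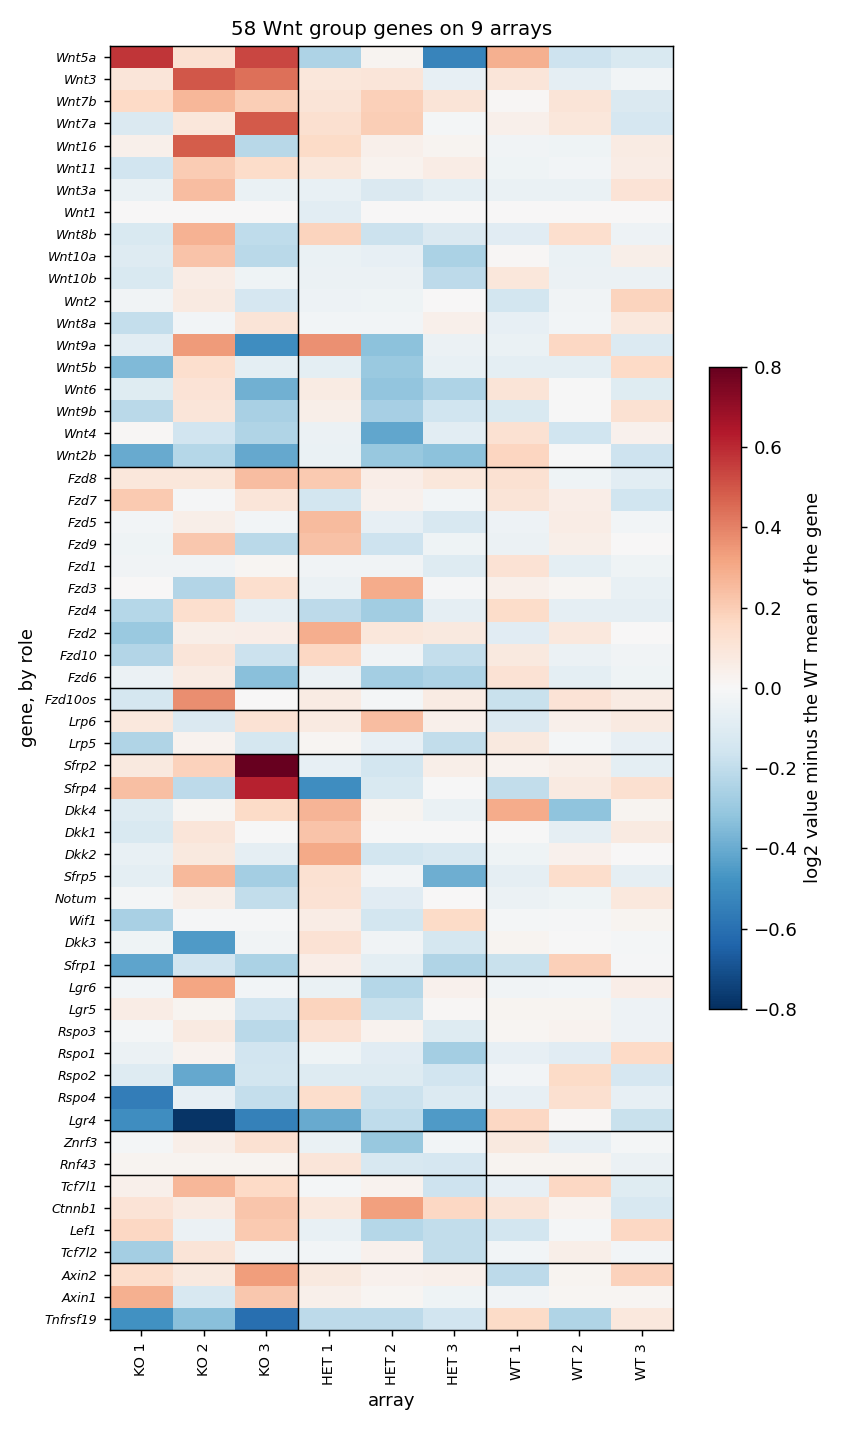
Every member (rows, by role) on every array (columns, KO, HET and WT), coloured by its log2 value minus the WT mean of that gene. Lgr4 and Tnfrsf19 are below the WT mean on all KO and HET arrays, and Sfrp2 and Sfrp4 are highest on KO replicate 3.

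Of the 10 secreted inhibitors, 3 lay higher and 7 lower in KO than in WT (47.4% of all genes lay lower), with 0 calls. Sfrp1, which binds Wnt proteins and is made by cortical progenitors, had 9.37, 9.64 and 9.54 in KO, 9.84, 9.71 and 9.55 in HET, and 9.61, 9.98 and 9.78 in WT. The KO mean was the lowest, but KO replicate 2 lay above WT replicate 1 (KO minus WT -0.28, SE 0.12, limma adjusted p = 0.77). Its relative Sfrp2 had 7.34, 7.45 and 8.06 in KO, 7.20, 7.12 and 7.31 in HET, and 7.29, 7.31 and 7.19 in WT. All KO arrays lay above all others, and KO replicate 3 was far above its own group (KO minus WT 0.35, SE 0.16, limma adjusted p = 0.81). Without KO replicate 3 that difference was 0.13. Sfrp4 was also highest on KO replicate 3 and lay at 0.22 in KO minus WT.

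Dkk3, the divergent member of the Dickkopf family, had 6.67, 6.25 and 6.68 in KO, 6.82, 6.68 and 6.56 in HET, and 6.72, 6.70 and 6.69 in WT. The KO arrays lay below the WT arrays without overlap, but KO replicates 1 and 3 did so by little (KO minus WT -0.17, 95% interval -0.44 to 0.09), and without KO replicate 2 the difference was -0.03. The LRP-binding inhibitors Dkk1, Dkk2 and Dkk4 lay at -0.01, -0.02 and 0.02. The Wnt-binding Wif1 lay at -0.09 and Notum, which strips the lipid from Wnt proteins, at -0.06.

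Estimated differences of the nuclear effectors lay between -0.16 and 0.27 on the log2 scale in every pairwise comparison. Ctnnb1 had 9.66, 9.62 and 9.77 in KO, 9.64, 9.88 and 9.72 in HET, and 9.65, 9.58 and 9.43 in WT (KO minus WT 0.13, 95% interval -0.07 to 0.34), with overlap between all genotypes. Lef1, a nuclear partner of beta-catenin and itself a target, had 5.79, 5.59 and 5.84 in KO, 5.57, 5.40 and 5.43 in HET, and 5.48, 5.62 and 5.79 in WT. Its KO arrays lay above its HET arrays by 0.27 (SE 0.10, limma adjusted p = 0.73), while KO and WT overlapped (0.11, 95% interval -0.12 to 0.34). Tcf7l1, mostly a repressor, also had KO arrays above all HET arrays (KO minus HET 0.21, limma adjusted p = 0.82), and Tcf7l2, abundant in thalamic neurons, lay at -0.06 in KO minus WT.

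Axin2, the standard feedback target of beta-catenin, had 7.04, 6.98 and 7.23 in KO, 6.98, 6.93 and 6.94 in HET, and 6.69, 6.92 and 7.08 in WT. WT replicate 3 lay above KO replicates 1 and 2, and KO minus WT was 0.19 (SE 0.11, 95% interval -0.05 to 0.42, limma adjusted p = 0.92). It was 0.080 without WT replicate 1 and 0.28 without WT replicate 3. Axin1, a scaffold of the complex that degrades beta-catenin, lay at 0.12. Tnfrsf19, also called TROY, is a receptor of the TNF family and a Wnt target found in radial glia. It had 5.69, 5.84 and 5.57 in KO, 5.96, 5.96 and 6.02 in HET, and 6.33, 5.93 and 6.26 in WT. Every KO array lay below every HET and WT array, and WT replicate 2 lay below the HET arrays. KO minus WT was -0.47 (SE 0.11, 95% interval -0.72 to -0.23, limma adjusted p = 0.17), and KO minus HET was -0.28 (SE 0.11, adjusted p = 0.75).

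Members whose genotypes did not overlap numbered 6 in KO against WT (10.3%, against 9.98% of all genes), 9 in KO against HET (15.5%, against 6.54%) and 2 in HET against WT (3.45%, against 6.85%). The 6 were Wnt7b and Sfrp2 above (5.63% of all genes), and Lgr4, Tnfrsf19, Wnt2b and Dkk3 below (4.34%). The 9 were Wnt5a, Sfrp2, Lef1, Tcf7l1, Wnt3a and Znrf3 above, and Lgr4, Tnfrsf19 and Fzd2 below, against 3.45% and 3.09% of all genes. The 2, Lgr4 and Wnt3a, lay lower in HET, as 3.1% of all genes did without overlap, while 3.75% lay higher. The 40 members not described by array lay between -0.27 (Rspo4) and 0.22 (Sfrp4) in KO minus WT, 14 higher and 26 lower, where 47.4% of all genes lay lower. The lowest unadjusted p among them in that comparison was 0.056.

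Other genes of the pathway, from lists outside the 58, were counted in the same fit. In KO against WT 1 of them passed, where 0.451% of all genes did. Draxin, a secreted axon guidance protein that antagonises Wnt through LRP6, had 7.40, 7.13 and 7.47 in KO, 6.999 in each of the 3 HET arrays, and 6.73, 6.58 and 6.82 in WT. The HET values were equal to the digits given, so they added little to the spread that the fit shares across genotypes. The genotypes did not overlap in any pair. Draxin rose 1.54-fold in KO against WT (log2 0.62, SE 0.10, limma adjusted p = 0.028) and lay at 0.29 in HET minus WT (SE 0.10, adjusted p = 0.99). The call was lost in 10 of 20 other settings, among them without any 1 WT array (adjusted p between 0.072 and 0.16), without KO replicate 1 or 3 (0.13 each), without HET replicate 2 or 3 (0.062 and 0.053), and with only the 2 genotypes compared in the fit (0.15), with median centring (0.058) and with the Xist level as a covariate (0.059). Draxin lies on chromosome 4, as Prdm16 does, with 80 protein-coding genes between them, and whether that place bears on its difference was not tested.

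The 22 genes of Wnt secretion, co-receptors and extracellular partners held Draxin as their 1 call, with 8 higher and 14 lower in KO than in WT, and 1 in each direction at an unadjusted p under 0.05. Over all genes 3.28% were higher and 2.87% lower at that unadjusted level. Tpbg, a Wnt modulator, lay at -0.32 (SE 0.12) and Porcn, the enzyme that lipidates Wnt proteins, at 0.13 (SE 0.096). The 34 genes of the destruction complex and nuclear partners lay higher in 28 cases and lower in 6, with a median of 0.09, 0 calls, and 5 higher and 1 lower at an unadjusted p under 0.05, where 52.6% of all genes lay higher. Of these, Nkd2, which binds Dishevelled, lay at 0.45 (SE 0.14), Dact1, another Dishevelled partner, at 0.44 (SE 0.15), and Dvl3, a Dishevelled gene, at 0.28 (SE 0.11).

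The 21 genes of planar cell polarity and non-canonical signalling lay higher in 11 cases and lower in 10, with 0 calls and 2 in each direction at an unadjusted p under 0.05. Daam2, a formin that binds Dishevelled, had 6.78, 7.02 and 6.80 in KO, 7.35, 7.77 and 6.99 in HET, and 7.52, 7.72 and 7.35 in WT. Its KO minus WT difference was -0.66 (SE 0.17, limma adjusted p = 0.27), with KO below WT without overlap. The polarity cadherin Celsr2 lay at 0.32 (SE 0.099) and Intu, a planar polarity effector of cilium formation, at -0.33 (SE 0.11). The 24 measured genes of 26 listed as beta-catenin targets lay higher in 11 cases and lower in 13, with a median of -0.02, 0 calls and 3 in each direction at an unadjusted p under 0.05. For this list and the previous one the shares of all genes at that level were 3.28% higher and 2.87% lower. Neurog1, a neurogenic factor, lay at -0.31 (SE 0.094), the cyclin Ccnd1 at -0.28 (SE 0.097) and Gad1, a GABA synthesis enzyme, at 0.24 (SE 0.086). In HET against WT none of the 4 lists held a call, and 1 gene was higher and 3 were lower at an unadjusted p under 0.05: Draxin, then Intu, Neurog1 and Ascl2, the last named after its values were known. Over all genes 2.4% were higher and 1.66% lower at that level in HET against WT.

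**Figure D4:**
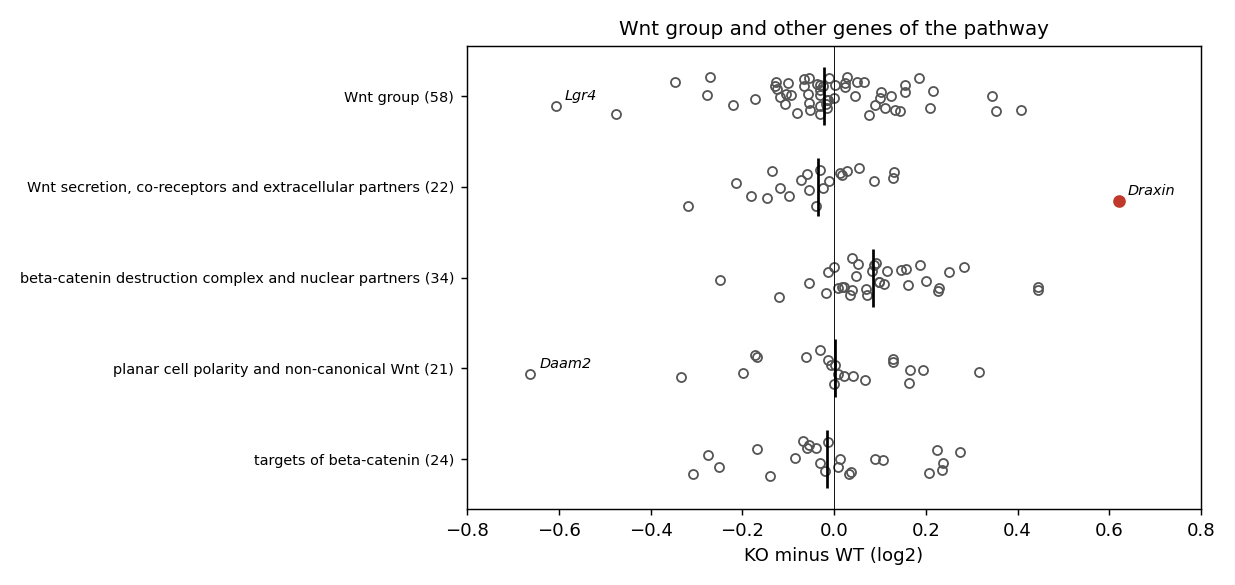
KO minus WT differences (log2) of the 58 members and of 4 lists of other pathway genes, 1 point per gene with the median as a vertical line and calls filled red. Draxin at 0.62 is the 1 filled point, and Lgr4 at -0.61 and Daam2 at -0.66 are the lowest values of their rows.

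Cell type markers are given beside these values. Of 15 astrocyte genes 10 lay lower in KO than in WT, with 3 called (Apoe, Clu and Aqp4), and their mean log2 value per array was 6.88 to 7.01 in KO, 7.17 to 7.41 in HET and 7.26 to 7.36 in WT. Of 20 ependymal and motile cilium genes 19 lay lower with 0 called (5.31 to 5.46 in KO, 5.495 to 5.67 in HET, 5.65 to 5.68 in WT), and of 18 radial glia genes, which mark the labelled tissue, 13 lay lower with 0 called (8.22 to 8.41 in KO, 8.23 to 8.48 in HET, 8.37 to 8.55 in WT). Over all genes 47.4% lay lower in KO than in WT, with 0.166% called higher and 0.286% called lower. In KO against WT Lgr4 and Tnfrsf19 lay lower alongside these lists. In HET against WT the list medians were -0.03 for astrocytes, -0.06 for ependymal genes and -0.04 for radial glia. Lgr4 lay at -0.35 there and Tnfrsf19 at -0.19. The part of cell composition in the differences of Lgr4 and Tnfrsf19 was not tested. In bulk RNA fewer cells of a type and less RNA per cell cannot be told apart. The array means of the radial glia list overlapped between KO and WT. So did those of cortical hem, choroid plexus (1 gene called higher, F5), neurons, thalamus, oligodendrocytes and microglia. Array means were lower in every KO array than in every WT array for astrocytes and for ependymal genes. The same held for endothelial cells and pericytes (1 called lower, Slco1c1, with 6.29 to 6.37 in KO, 6.28 to 6.43 in HET, 6.38 to 6.43 in WT) and for meninges and fibroblasts (1 called lower, Ogn, with 5.31 to 5.48 in KO, 5.44 to 5.59 in HET, 5.52 to 5.57 in WT).

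Of the 58 members, 25 lay above the highest array median on all 9 arrays, among them 5 Wnt ligands and 7 Frizzled receptors, and 28 had a mean under it. Arrays within a genotype also differed. KO replicate 2 was the highest KO array for 34 of 58 members (58.6%, against 44.0% of all genes) and HET replicate 1 the highest HET array for 36 (62.1%, against 44.0%). These were the arrays with the lowest weights, 0.364 and 0.547. The median SD of a member between arrays was 0.15 in KO, 0.12 in HET and 0.10 in WT, and over all genes 0.13, 0.12 and 0.077. Of the 58 members, 21 had exactly the same deposited value on 3 or more arrays, as 37.7% of all genes did.

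**Figure D5:**
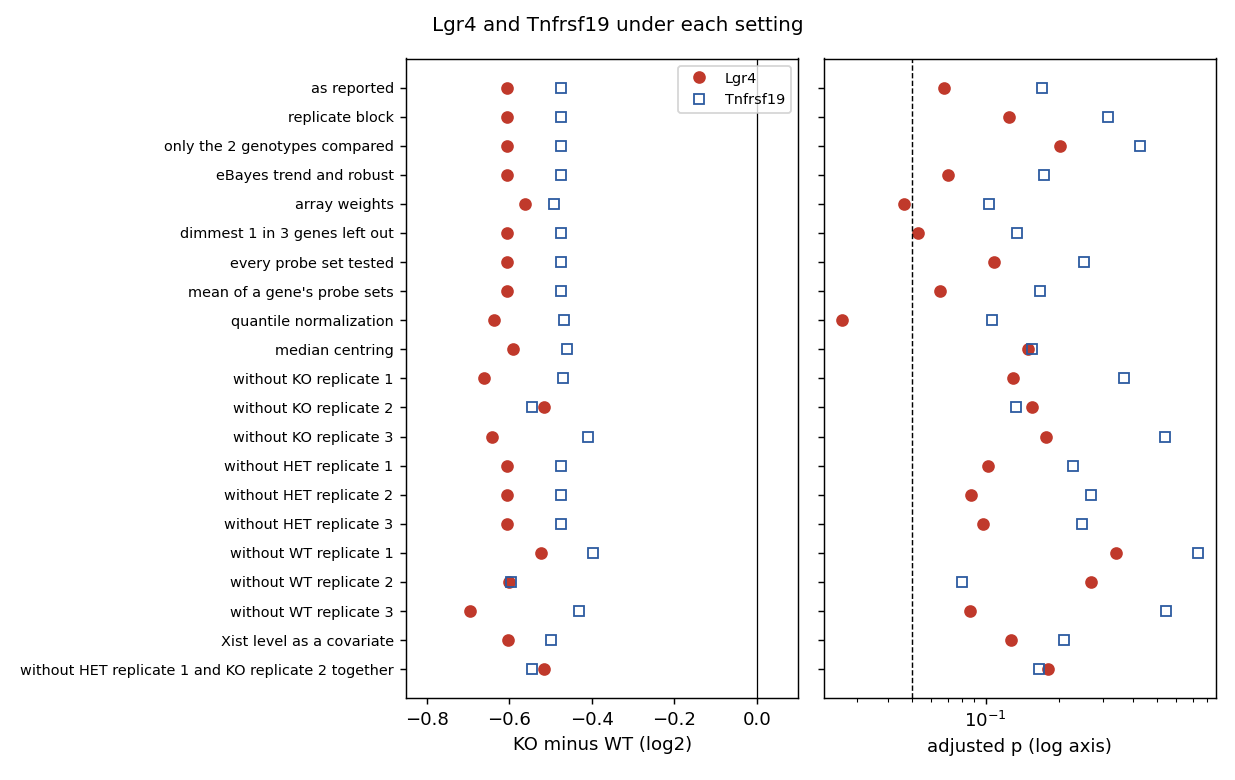
KO minus WT difference (left, log2) and adjusted p (right, log axis, with 0.05 as a dashed line) of Lgr4 and Tnfrsf19 under each processing setting. The difference of Lgr4 stays between -0.70 and -0.52 and that of Tnfrsf19 between -0.60 and -0.40, while among these settings the adjusted p of Lgr4 is under 0.05 with array weights and with quantile normalization only.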

How the data were processed

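RNA was amplified with NuGEN kits, per the labels' protocols. The deposited values are on the log2 scale and cover 28940 probe sets on 9 arrays (3 per genotype), with array medians between 5.80 and 5.92. Per the submitters' processing notes, RMA, affy and limma were used; versions, order and the probe set annotation of that step are not given in the sources used here. Detection calls were not used, so a low value may be background, and the number of arrays limits the precision.

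From these values, 21789 probe sets with 1 gene symbol in the platform annotation were kept, and the brightest on average per gene gave 19938 genes. Every one of the 58 symbols was found unchanged in RefSeq's gene table for GRCm38.p6. A linear model with 3 genotype means was fitted to the 9 arrays together in limma 3.58.1 (R 4.3.3, lmFit and eBayes, two-sided, no further normalization or filter), and p-values were adjusted over all genes. The procedure was tested on simulated data.

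The members and lists were chosen with earlier results of these data known. Values by array are given for members with an unadjusted p under 0.05 in any pairwise comparison, the 5 with the highest mean, and 11 fixed genes (Ctnnb1, Axin2, Lef1, Lgr5, Tnfrsf19, Wnt7a, Wnt7b, Wnt5a, Wnt8b, Sfrp1 and Dkk3), 18 in all; of each pathway list, the 3 genes with the lowest p in KO against WT are named. Alternatives tried were a block for the replicate number, a fit on only the genotypes compared, trend and robust eBayes, array weights, a filter on dim genes, every probe set tested, the mean of probe sets, quantile normalization, median centring, the Xist level as a covariate, an adjusted p under 0.10 and each array left out.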

Additional observations from a re-analysis of the deposited data

How the results depend on the processing

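The number of members called stayed 0 in every pairwise comparison and in the test for any difference under every alternative setting of the fit that was run, except that it was 1 (Lgr4) in KO against WT with array weights and with quantile normalization. It was also 1 there at an adjusted p under 0.10. The replicate block left 0 members called, with an adjusted p of 0.12 for Lgr4 and 0.32 for Tnfrsf19 in KO against WT. Arrays of the same number deviated from their genotype means with correlations between -0.34 and 0.055, so the numbers were not taken to pair the arrays.

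The omission of HET replicate 1 together with KO replicate 2 was chosen after seeing the data. It gave 11 members at an unadjusted p under 0.05 in KO against WT, 6 in HET against WT and 9 for any difference, with 0 calls, while 2281, 2869 and 2967 of all 19938 genes were at that level. Without KO replicate 2 alone the count was 8 in KO against HET (1680 genes), and the median KO minus HET difference of the members turned to -0.04, against 0.02. Without KO replicate 3, and likewise without HET replicate 2, it was 2 in KO against HET (1209 and 986 genes). Without KO replicate 3 it was 3 for any difference (967 genes). Without HET replicate 1 it was 3 in KO against HET (2318 genes) and 3 in HET against WT (2280 genes). In HET against WT it was 2 without WT replicate 2 or 3, with array weights and with the Xist covariate, and array weights gave 8 for any difference (2042 genes).

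Of 25 named differences, Draxin's among them, 20 kept their sign in every setting run. The others were KO minus WT differences of 5 members. With each array left out in turn, Fzd3 ranged from -0.114 to 0.0697, Lgr5 from -0.0664 to 0.0419, Lrp6 from -0.0316 to 0.0995, Wnt7a from -0.0140 to 0.290 and Wnt8b from -0.163 to 0.0785. Fzd3 lay at 0.00068 when arrays were weighted, and at 0.0697 when HET replicate 1 and KO replicate 2 were both omitted. With quantile normalization Lrp6 lay at -0.0102 and Wnt8b at 0.0013. KO minus WT was 0.037 for Lef1 without WT replicate 1 and 0.069 for Ctnnb1 without WT replicate 3. The cause of these shifts was not tested. Wnt3, Lgr5 and Wnt8b were among the genes removed by the filter on dim genes. Signal over background was not used here, which limits what can be said of the 28 members whose mean lay under the highest array median.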
